A study of Mus musculus with 14 samples.

Results

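The genes for the proteins of the mitochondrial ribosome were followed in full-grown, germinal vesicle-intact mouse oocytes. A gene was a member when its symbol began with Mrpl or Mrps followed by a digit, which gave 78 genes of 20638 in the count files. Of these, 49 carried a large subunit symbol (Mrpl) and 29 a small subunit symbol (Mrps). Where a gene had several RefSeq transcripts, the transcript with the highest mean count stood for it, which mattered for 6 members.

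RNA-seq had been done on 14 libraries of 20 oocytes, each library from 3 mice per the labels, to ask how loss of AGO2 slicing compares with loss of DICER in the oocyte. The 3 *Ago2* fl/fl libraries came from females homozygous for a floxed *Ago2* allele and were the control of the *Ago2* series. The 3 *Ago2* ADH libraries came from *Ago2* fl/ADH females with a *Zp3*-Cre transgene, in which Cre removes the floxed allele in growing oocytes and leaves an allele coding for a catalytically inactive AGO2. The 2 *Ago2* null libraries came from *Ago2* fl/fl females of the same crosses that carried *Zp3*-Cre and so lost both alleles in the oocyte. The 3 *Dicer* WT and 3 *Dicer* KO libraries compared wild-type females with females carrying an oocyte-specific loss of *Dicer*. All females were 4 to 6 weeks old and had received 5 IU of eCG, a hormone that stimulates follicle growth, 48 h before collection. *Zp3* drives Cre from the growing oocyte onwards, so RNA and protein made before excision can still be present.

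Mitochondria keep a small genome of their own, and the few proteins it codes for, all parts of the respiratory chain and ATP synthase, are made on a ribosome inside the organelle. The ribosomal RNAs of that ribosome come from the mitochondrial genome, but all of its proteins are coded in the nucleus, translated in the cytoplasm and imported. Some of these proteins descend from bacterial ribosomal proteins and others are found only in mitochondria. The growing oocyte accumulates a very large number of mitochondria, which the early embryo then inherits.

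Counts assigned to transcripts ranged from 29380403 to 58285057 per library, so the 3 counts that a value of 0 allows came to between 0.0515 and 0.102 CPM (counts scaled to the size of each library), counting error only. *Ago2* itself read 24.0 to 25.5 CPM in *Ago2* fl/fl, 12.4 to 13.7 in *Ago2* ADH and 5.30 to 7.17 in *Ago2* null libraries. *Dicer1* read 745 to 779 CPM in the *Dicer* WT libraries and 1680 to 1940 in the libraries labelled *Dicer* KO, and since the counts cover the whole transcript they do not check the deletion of a part of it. The 12 oocyte markers summed to between 10800 and 16400 CPM in every library, and the 4 blood markers to at most 0.0996. The 12 cumulus or granulosa cell markers summed to 78.9 to 85.1 CPM in *Ago2* fl/fl, 62.0 to 69.4 in *Ago2* ADH, 58.6 to 60.7 in *Ago2* null, 97.5 to 105 in *Dicer* WT and 82.0 to 87.0 in *Dicer* KO libraries. Most of that sum was *Cyp19a1* and *Nr5a2*. Among the others, *Amh* and *Foxl2* had group means of at most 0.153 CPM, and *Kitl* had 4.34 to 5.32. The sum was lower in all 3 mutant groups, as were *Cyp19a1* and *Nr5a2*, but not every marker fell. *Inha* had means of 0.753 CPM in *Ago2* fl/fl, 1.44 in *Ago2* ADH and 1.39 in *Ago2* null. In the *Dicer* series it had 0.326 in *Dicer* WT and 0.201 in *Dicer* KO. The part of these markers in the results was not tested. Each *Ago2* genotype had been sequenced in its own lane, and there the lane cannot be told apart from the genotype. Values are relative to the library total, so a change in the RNA content of an oocyte cannot be told apart from a change in the share that a gene takes.

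Levels were compared between genes as CPM per kilobase of transcript, which depends on the annotated length. In *Ago2* fl/fl oocytes the members spanned from 0.207 for *Mrps34* to 391 for *Mrps36*, with a median of 18.3 and quartiles of 7.18 and 33.8. The highest were *Mrps36* (391 ± 10.7, SD, n = 3), *Mrps33* at 345, *Mrps21* at 158, *Mrpl33* at 145, *Mrps22* at 136 and *Mrpl18* at 127 CPM per kb. *Mrps33* and *Mrps22* code for small subunit proteins found only in mitochondria, whereas *Mrps21*, *Mrpl33* and *Mrpl18* have bacterial counterparts. The product of *Mrps36*, despite its name, is known today as a subunit of the 2-oxoglutarate dehydrogenase complex of the citric acid cycle. The lowest were *Mrps30* at 3.95, *Mrpl49* at 3.44, *Mrpl15* at 2.76, *Mrps5* at 1.88, *Mrps26* at 0.765 and *Mrps34* at 0.207 CPM per kb. In *Mrps34* this rested on 17, 12 and 4 counts in the *Ago2* fl/fl libraries. In the order by level, 60 of the 77 neighbouring pairs overlapped between replicates, so most steps of the order were not larger than the spread. *Dicer* WT oocytes, sequenced separately, had *Mrps36* (281), *Mrps33* (261), *Mrps22* (126), *Mrpl18* (93.1) and *Mrps21* (85.0) on top, a median of 12.4 CPM per kb and 68 of 77 neighbouring pairs overlapping. Over the 78 members the log2 levels of both control groups had Pearson's r = 0.974 and Spearman's rho = 0.961, a description across genes that share their lengths.

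**Figure D1:**
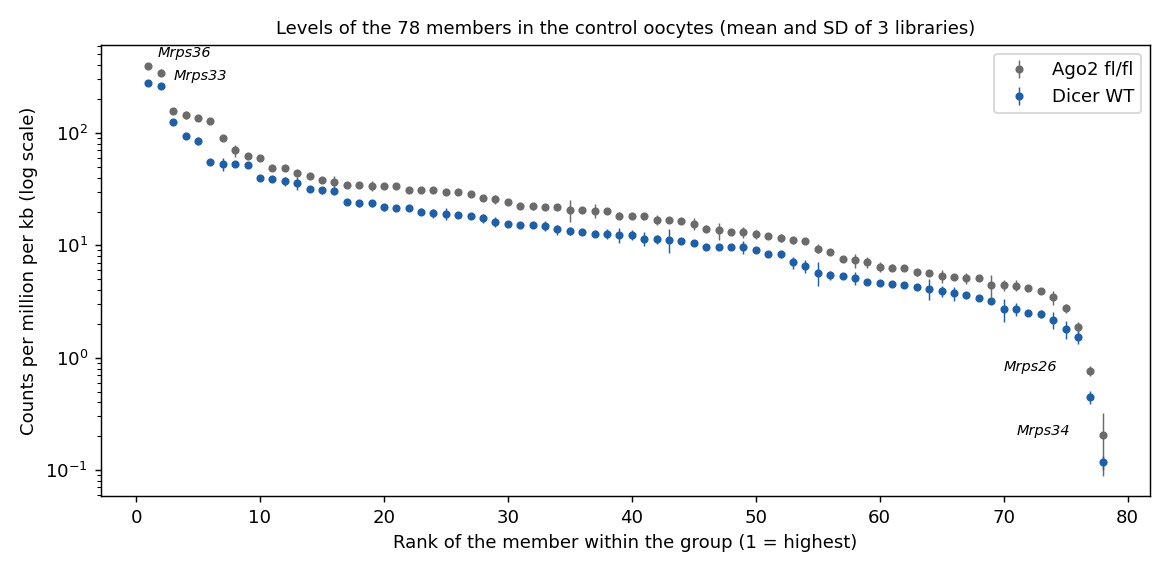
Level of the 78 members in CPM per kilobase (log axis) against their rank, for *Ago2* fl/fl and *Dicer* WT oocytes; points are means and bars SDs of 3 libraries. *Mrps36* and *Mrps33* lie above the rest of the curve, and *Mrps34*, at 0.207 in *Ago2* fl/fl, lies below it.

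In *Ago2* ADH oocytes the mitochondrial ribosomal protein genes did not shift as a block. Against *Ago2* fl/fl, 15 members rose and 10 fell at an adjusted p under 0.01 (edgeR's quasi-likelihood test, Benjamini-Hochberg over all transcripts tested), and the median log2 fold change of the 78 was 0.015. The 25 calls were 32.1% of the members, beside a background of 40.9% of all genes tested. By direction, 19.2% of the members rose against 21.0% of all genes, and 12.8% fell against 19.9%. Of the members, 1.28%, a lone gene (*Mrpl9*), passed the test with a change of at least 2-fold, against 13.4% of all genes. The median size of the change, without its sign, was 0.206 on the log2 scale for members and 0.348 for all genes, and 71 of 78 members lay within 1.5-fold of the control. Called increases came from shorter transcripts, with a median of 940 bases against 3006 for called decreases and 1197 for members not called. With an offset for GC content and length, an alternative chosen after seeing the data, 14 members rose and 5 fell, so the share of increases among the calls went from 15 of 25 to 14 of 19. The decreases that no longer passed were *Mrpl1*, *Mrpl11*, *Mrpl32*, *Mrpl39*, *Mrpl48*, *Mrps14*, *Mrps27* and *Mrps35*, all still negative at log2 fold changes of -0.30 to -0.13 (edgeR adjusted p = 0.0114 to 0.114), while *Mrpl53*, *Mrps18a* and *Mrps7* newly passed as decreases (-0.48, -0.38 and -0.24). Without *Ago2* ADH replicate 1 there were 16 calls, 5 of them lower, and without *Ago2* fl/fl replicate 1, *Ago2* fl/fl replicate 2 or *Ago2* ADH replicate 3 there were 6 lower ones.

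In *Ago2* null oocytes 16 members rose and 8 fell against the same 3 control libraries, with a median log2 fold change of 0.065. The 24 calls were 30.8% of the members against 37.3% of all genes, with 20.5% rising against 18.6% and 10.3% falling against 18.7%. Again *Mrpl9* was the lone member called at 2-fold or more, where 12.9% of all genes were. The median size of the change was 0.231 on the log2 scale for members and 0.38 for all genes. Members called down were again the longer ones, at a median of 2646 bases against 1339 for those called up. This comparison rested on 2 mutant libraries, and without *Ago2* null replicate 2 it called 11 members, 9 higher and 2 lower. Without *Ago2* fl/fl replicate 2 it called 14, of which 2 were lower.

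With each series fitted by itself, fewer members were called in *Dicer* KO oocytes than in either *Ago2* mutant. Of the 77 tested (*Mrps34* did not pass the filter on low counts), 7 rose and 6 fell, and the median log2 fold change was -0.01. This was 16.9% of the members against 34.5% of all genes tested, with 9.09% rising against 16.9% and 7.79% falling against 17.6%. *Mrpl9* was the lone call of at least 2-fold, 1.3% of members against 12.9% of all genes. The median size of the change was 0.214 on the log2 scale against 0.366 for all genes, and 74 members lay within 1.5-fold of *Dicer* WT. With all 5 groups in a fit the calls were 18 in *Dicer* KO (9 higher, 9 lower), 20 in *Ago2* ADH and 18 in *Ago2* null, so the smaller number rested on the separate fits. With the offset for GC content and length, 7 members rose and 2 fell, and *Mrpl11*, *Mrpl48*, *Mrps14* and *Mrps35* no longer passed as decreases, at log2 fold changes of -0.47, -0.16, -0.35 and -0.39 (edgeR adjusted p = 0.0129, 0.206, 0.0107 and 0.0113). Called decreases had a median length of 3022 bases against 1398 for increases.

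**Figure D2:**
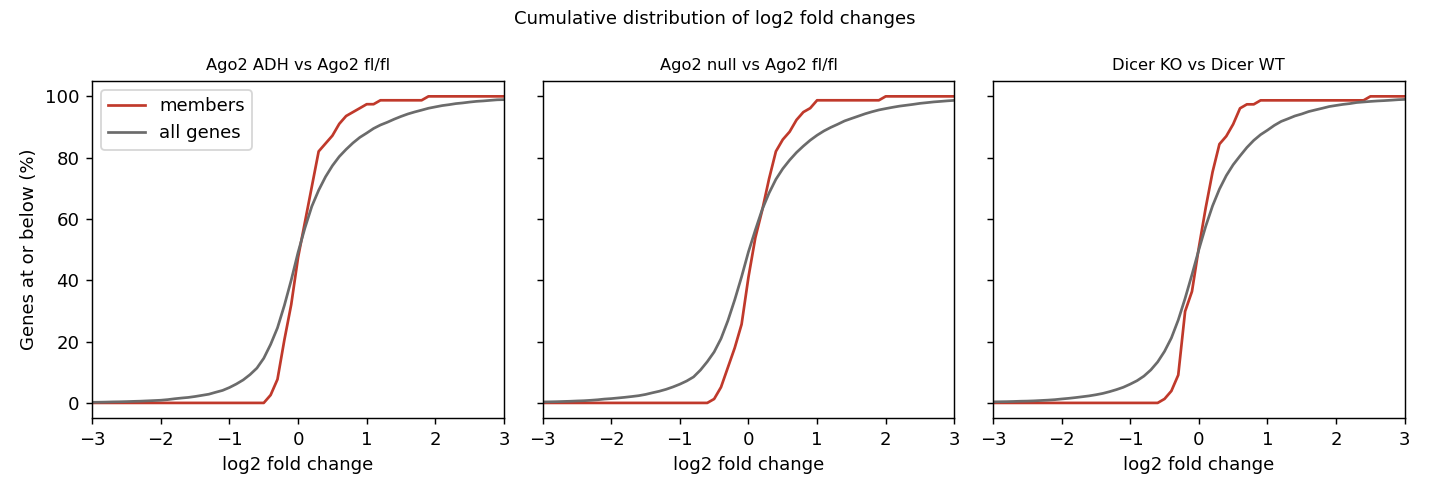
Cumulative share of genes (%) at or below each log2 fold change, for members (red) and all genes tested (grey) in the 3 comparisons with controls. The members' curves are steeper and cross 50% near 0 in each panel, with medians of 0.015, 0.065 and -0.01.

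*Mrpl9*, whose product is a large subunit protein with a bacterial counterpart, was set apart from the other members in every mutant. It read 58.3, 54.1 and 55.2 CPM in *Ago2* fl/fl, 194, 210 and 169 in *Ago2* ADH, and 220 and 209 in *Ago2* null libraries. In the *Dicer* series it read 19.2, 19.1 and 16.2 CPM in the wild type and 102, 105 and 97.7 in the libraries labelled *Dicer* KO. Every mutant library was above every library of its control, and the *Dicer* KO level stayed below the *Ago2* mutant levels. Such separation was common among the members, here and for the genes below. In *Ago2* ADH 16 members lay wholly above and 22 wholly below the control, in *Ago2* null 27 and 20, and in *Dicer* KO 17 and 18. Its share over all genes was not computed, so it is a description and no support for the calls. The log2 fold change was 1.82 ± 0.066 (SE) in *Ago2* ADH (3.53-fold, edgeR adjusted p = 2.94e-14), 1.97 ± 0.0613 in *Ago2* null (3.92-fold, adjusted p = 1.01e-13 by edgeR) and 2.48 ± 0.0841 in *Dicer* KO (5.57-fold, edgeR adjusted p = 2.26e-14). In the order by CPM per kb *Mrpl9* went from rank 17 in *Ago2* fl/fl to rank 7 in both *Ago2* mutants, and from rank 42 in *Dicer* WT to rank 7 in *Dicer* KO. The outer RefSeq bounds of the gene are chr3:94443154-94448708, plus strand (GRCm38), its GENCODE transcript begins at 94443325, and that transcript shares 157 of 1612 bases with exons of *Oaz3* on the other strand. The counting did not use strand, so reads of that stretch could not be told apart. *Oaz3* read 1.41 to 3.27 CPM over all libraries and had log2 fold changes of -0.13, 0.08 and 0.12, none called. *Mrpl9* also holds sequence similar to 220 other genes, by the measure given below for repeats. The part of the shared stretch and of the similar sequence in the increase of *Mrpl9* was not tested. *Tdrkh*, the neighbouring gene, was called lower in *Ago2* ADH (log2 fold change -0.26, edgeR adjusted p = 0.00264) and in *Dicer* KO (-0.49, edgeR adjusted p = 8.63e-05).

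The other members called higher in all 3 mutants were *Mrps36*, *Mrpl33*, *Mrpl27* and *Mrpl43*. *Mrps36*, the 2-oxoglutarate dehydrogenase subunit, read 266, 275 and 281 CPM in *Ago2* fl/fl, 363, 412 and 391 in *Ago2* ADH, 398 and 416 in *Ago2* null, 199, 199 and 192 in *Dicer* WT, and 295, 285 and 292 in *Dicer* KO libraries. The groups did not overlap, and the changes were of like size, at log2 fold changes of 0.55 ± 0.0507, 0.60 ± 0.0551 and 0.56 ± 0.0568 (edgeR adjusted p = 3.62e-08, 1.38e-07 and 1.69e-07). *Mrpl33*, with a bacterial counterpart, read 76.6, 66.0 and 65.5 CPM in *Ago2* fl/fl, 105, 111 and 90.9 in *Ago2* ADH, 120 and 114 in *Ago2* null, 28.0, 26.7 and 21.6 in *Dicer* WT, and 35.3, 34.1 and 41.8 in *Dicer* KO libraries. Its control levels differed between the series more than its mutant and control levels did within them, and within each series the groups stood apart (log2 fold changes 0.61 ± 0.0718, 0.79 ± 0.0728 and 0.54 ± 0.109, edgeR adjusted p = 9.91e-07, 1.55e-07 and 0.000458).

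*Mrpl27*, whose bacterial counterpart sits close to the peptidyl transferase centre, was a low gene, at 4.10, 2.65 and 3.33 CPM in *Ago2* fl/fl, 5.38, 5.54 and 4.74 in *Ago2* ADH, 5.38 and 6.82 in *Ago2* null, 3.31, 2.61 and 2.6 in *Dicer* WT, and 4.75, 5.62 and 5.17 in *Dicer* KO libraries. The mutant libraries were all higher, with log2 fold changes of 0.68 ± 0.172, 0.89 ± 0.196 and 0.86 ± 0.207 (edgeR adjusted p = 0.00264, 0.00124 and 0.00219). The *Ago2* ADH call was lost without *Ago2* fl/fl replicate 2 or 3 or *Ago2* ADH replicate 1 (edgeR adjusted p = 0.0105 to 0.0201), the *Ago2* null call without *Ago2* null replicate 2 (edgeR adjusted p = 0.0242), and the *Dicer* KO call without *Dicer* WT replicate 2 or 3 or *Dicer* KO replicate 2 (edgeR adjusted p = 0.012 to 0.0131). *Mrpl43*, found only in mitochondrial ribosomes, read 7.77, 7.74 and 8.38 CPM in *Ago2* fl/fl, 11.1, 11.9 and 10.6 in *Ago2* ADH, 9.40 and 12.9 in *Ago2* null, 6.91, 7.54 and 8.30 in *Dicer* WT, and 11.2, 10.2 and 11.2 in *Dicer* KO libraries. Again no group overlapped its control (log2 fold changes 0.54 ± 0.11, 0.52 ± 0.141 and 0.52 ± 0.146, edgeR adjusted p = 0.000433, 0.0061 and 0.00714). Without *Ago2* null replicate 2 its log2 fold change in *Ago2* null was 0.27 (edgeR adjusted p = 0.187), and that call was also lost without any of the 3 *Ago2* fl/fl replicates (edgeR adjusted p = 0.0124 to 0.0208). The *Dicer* KO call was lost when any library but *Dicer* WT replicate 3 was left out (edgeR adjusted p = 0.013 to 0.0331) and with a replicate block. *Mrpl43* shares 385 of 1398 bases with *Twnk* on the other strand and *Mrpl27* shares 75 of 756 with *Eme1*. *Twnk* was itself called higher in all 3 mutants (log2 fold changes 1.13, 1.16 and 1.26, edgeR adjusted p = 1.24e-07, 9.22e-07 and 4.94e-07). *Eme1* had 0.30, 0.25 and 0.25 and was called in *Ago2* ADH alone (edgeR adjusted p = 0.00435). Without strand, reads of the shared stretches could not be told apart, and their part in these increases was not tested.

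The promoters of these 5 genes are shown because they are the members that moved up together in every mutant. Each runs from 250 bases before to 50 after the RefSeq start (GRCm38.p6), 5′ to 3′ on the gene's strand, and capitals mark matches to 3 motifs known from promoters of nuclear genes for mitochondrial proteins. The letters searched on both strands were GCGCATGC (NRF1), CCGGAAG (ETS factors, among them GABPA) and AAGATGGC (YY1). The windows are chr3:94443086-94443385 (plus strand) for *Mrpl9*, chr5:31613701-31614000 (plus) for *Mrpl33*, chr11:94653541-94653840 (plus) for *Mrpl27*, chr13:100744610-100744909 (minus) for *Mrps36* and chr19:45006393-45006692 (minus) for *Mrpl43*. For *Mrpl9* and *Mrpl27* the start that the table uses lies inside the outer bounds that RefSeq gives the gene, so part of each window before the start is also inside those bounds.
Mrpl9: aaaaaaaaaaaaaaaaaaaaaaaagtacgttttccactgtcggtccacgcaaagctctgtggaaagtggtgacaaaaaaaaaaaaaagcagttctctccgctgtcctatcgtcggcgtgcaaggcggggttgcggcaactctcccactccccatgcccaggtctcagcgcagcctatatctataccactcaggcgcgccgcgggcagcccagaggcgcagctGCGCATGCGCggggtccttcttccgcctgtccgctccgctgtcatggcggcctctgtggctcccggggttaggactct
Mrpl33: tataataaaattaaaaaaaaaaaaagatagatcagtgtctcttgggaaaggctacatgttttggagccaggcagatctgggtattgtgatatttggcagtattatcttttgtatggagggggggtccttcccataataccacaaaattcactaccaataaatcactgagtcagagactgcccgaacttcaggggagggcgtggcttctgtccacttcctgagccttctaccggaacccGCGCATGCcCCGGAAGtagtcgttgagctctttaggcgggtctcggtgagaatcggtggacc
Mrpl27: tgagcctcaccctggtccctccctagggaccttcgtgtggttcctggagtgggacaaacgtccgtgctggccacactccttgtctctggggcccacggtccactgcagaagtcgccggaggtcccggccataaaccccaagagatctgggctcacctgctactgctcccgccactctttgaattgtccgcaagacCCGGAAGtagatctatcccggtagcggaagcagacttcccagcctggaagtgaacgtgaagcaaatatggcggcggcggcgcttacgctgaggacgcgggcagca
Mrpl43: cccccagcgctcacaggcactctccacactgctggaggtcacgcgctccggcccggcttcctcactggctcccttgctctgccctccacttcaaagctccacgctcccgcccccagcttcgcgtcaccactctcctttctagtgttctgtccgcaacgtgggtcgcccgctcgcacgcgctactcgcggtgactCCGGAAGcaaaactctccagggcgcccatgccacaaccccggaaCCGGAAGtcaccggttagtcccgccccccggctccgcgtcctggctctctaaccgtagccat
Mrps36: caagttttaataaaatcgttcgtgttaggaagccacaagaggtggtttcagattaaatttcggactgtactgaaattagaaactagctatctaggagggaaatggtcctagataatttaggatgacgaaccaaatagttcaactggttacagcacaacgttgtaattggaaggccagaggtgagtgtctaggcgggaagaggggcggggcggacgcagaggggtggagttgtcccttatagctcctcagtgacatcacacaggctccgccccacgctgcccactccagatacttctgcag
The *Mrpl9* promoter held the NRF1 letters on both strands, overlapping each other, and *Mrpl33* held NRF1 and ETS letters next to each other. *Mrpl27* held the ETS letters at 1 place and *Mrpl43* at 2, and none of the 3 motifs was found in the *Mrps36* window. Over the 69 members with a promoter in the RefSeq table, 8 held the NRF1 letters (11.6% against 3.05% of 27025 genes), 26 the ETS letters (37.7% against 9.93%) and 12 the YY1 letters (17.4% against 3.19%). At least 1 of the 3 was in 55.1% of member promoters and 14.9% of all. The 27025 genes were not limited to genes expressed in the oocyte, as nearly all members were, and no share over expressed genes was computed. By call in *Ago2* ADH, the ETS letters were in 5 of 15 members called up, 2 of 9 called down and 19 of 45 not called. For NRF1 these counts were 3, 2 and 3, and for YY1 1, 2 and 9. By call in *Dicer* KO, the ETS letters were in 4 of 7 members called up, 1 of 5 called down and 21 of 57 not called. For NRF1 these counts were 2, 1 and 5, and for YY1 0, 0 and 12. The matches are a description of these windows, and the counts by call were not tested.

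*Mrps31*, *Mrps14*, *Mrpl39* and *Mrpl11* were called lower in all 3 mutants. *Mrps31*, a small subunit protein found only in mitochondria, read 70.9, 71.4 and 77.6 CPM in *Ago2* fl/fl, 52.2, 56.6 and 49.0 in *Ago2* ADH, 53.3 and 50.2 in *Ago2* null, 85.4, 84.1 and 80.2 in *Dicer* WT, and 70.4, 60.5 and 61.2 in *Dicer* KO libraries. Each mutant library was below each of its controls (log2 fold changes -0.43 ± 0.0657, -0.47 ± 0.0729 and -0.38 ± 0.075, edgeR adjusted p = 2.09e-05, 4.99e-05 and 0.000371). *Mrps14*, which has a bacterial counterpart, read 84.2, 75.7 and 70.5 CPM in *Ago2* fl/fl, 58.3, 60.7 and 58.2 in *Ago2* ADH, 60.5 and 54.7 in *Ago2* null, 47.7, 45.2 and 47.8 in *Dicer* WT, and 39.9, 31.7 and 30.9 in *Dicer* KO libraries. The groups again stood apart, at log2 fold changes of -0.33 ± 0.0647, -0.38 ± 0.0805 and -0.46 ± 0.0958 (edgeR adjusted p = 0.000292, 0.000845 and 0.000641), the second lost without *Ago2* null replicate 2 (0.0115).

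*Mrpl39*, a large subunit protein without a bacterial counterpart, read 39.8, 41.0 and 45.8 CPM in *Ago2* fl/fl, 31.9, 33.0 and 34.8 in *Ago2* ADH, 36.2 and 29.0 in *Ago2* null, 49.6, 48 and 50.7 in *Dicer* WT, and 40.0, 36.0 and 36.8 in *Dicer* KO libraries. No library overlapped the other group, and the log2 fold changes were -0.30 ± 0.0751, -0.34 ± 0.0985 and -0.40 ± 0.0795 (edgeR adjusted p = 0.00281, 0.00901 and 0.000444). Without *Ago2* null replicate 2 the second of these was -0.19 (edgeR adjusted p = 0.152), and it also missed the threshold without *Ago2* fl/fl replicate 2 or 3 (0.0213 and 0.0522) and with a replicate block. The first missed it without *Ago2* ADH replicate 1 or *Ago2* fl/fl replicate 3 (edgeR adjusted p = 0.0154 and 0.0234). *Mrpl11*, whose bacterial counterpart helps to bind the translation GTPases, read 19.6, 20.6 and 17.7 CPM in *Ago2* fl/fl, 14.4, 15.9 and 13.3 in *Ago2* ADH, 13.9 and 14.9 in *Ago2* null, 11.9, 13.1 and 10.6 in *Dicer* WT, and 8.78, 7.57 and 7.91 in *Dicer* KO libraries. The mutants were lower throughout, at -0.36 ± 0.0968, -0.39 ± 0.104 and -0.56 ± 0.145 on the log2 scale (edgeR adjusted p = 0.00429, 0.0055 and 0.00414). The first of these calls was lost without *Ago2* fl/fl replicate 1 or 2 or *Ago2* ADH replicate 1 or 3 (edgeR adjusted p = 0.0126 to 0.0303), the second without *Ago2* fl/fl replicate 1 or 2 or either *Ago2* null replicate (0.0116 to 0.0434), and the third without *Dicer* WT replicate 1 or 2 or *Dicer* KO replicate 2 or 3 (0.0115 to 0.027). With the offset for GC content and length, *Mrps31* stayed called in all 3 comparisons, while *Mrps14* passed only in *Ago2* null, *Mrpl39* only in *Dicer* KO and *Mrpl11* in none. The changes kept their sign, at -0.30, -0.35 and -0.47 for *Mrpl11* (edgeR adjusted p = 0.015, 0.0111 and 0.0129), -0.23 and -0.31 for *Mrpl39* in the *Ago2* mutants (edgeR adjusted p = 0.0137 and 0.0136), and -0.20 and -0.35 for *Mrps14* in *Ago2* ADH and *Dicer* KO (edgeR adjusted p = 0.0162 and 0.0107).

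**Figure D3:**
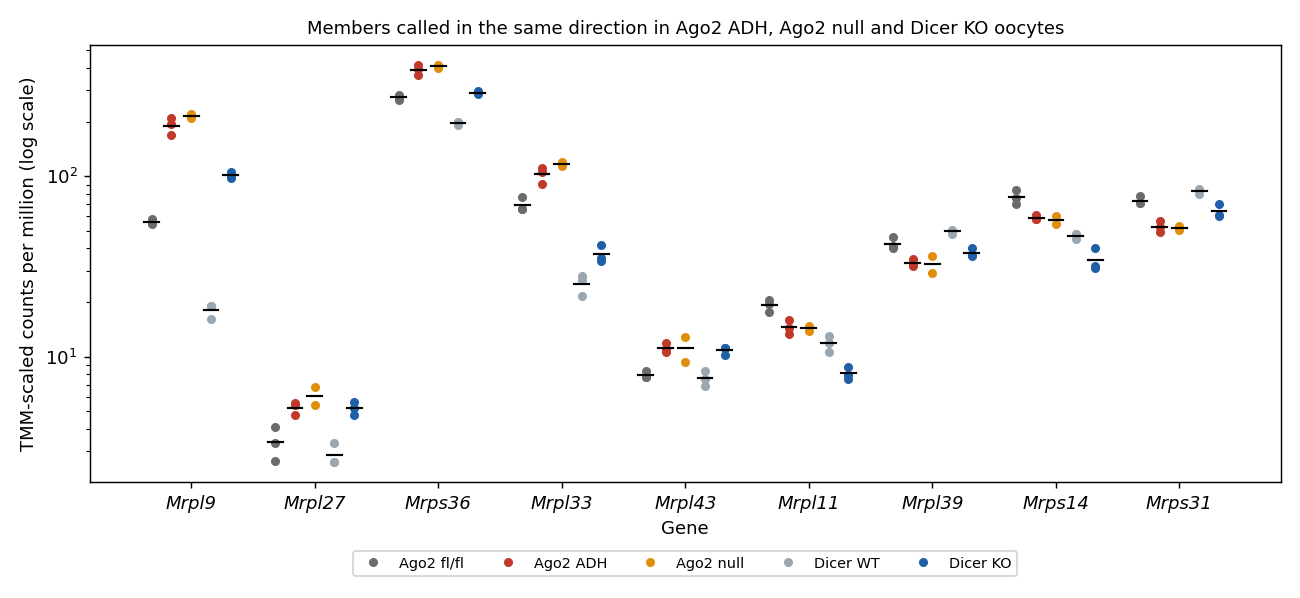
TMM-scaled CPM (log axis) of the 9 members called in the same direction in all 3 mutants; each point is a library, each bar the group mean (3 libraries, 2 for *Ago2* null). *Mrpl9* goes from 54.1 to 58.3 in *Ago2* fl/fl to 169 to 210 in *Ago2* ADH and from 16.2 to 19.2 in *Dicer* WT to 97.7 to 105 in *Dicer* KO, and the 4 genes on the right fall by much smaller steps.

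Among proteins of the large subunit that bacteria share, 30 were tested and 7 rose and 3 fell in *Ago2* ADH, 6 rose and 2 fell in *Ago2* null, and 3 rose and 1 fell in *Dicer* KO. Over all genes tested, 21.0% rose and 19.9% fell in *Ago2* ADH, 18.6% and 18.7% in *Ago2* null, and 16.9% and 17.6% in *Dicer* KO. These shares are also the background of the other subunit lists below, and no list was tested against them. *Mrpl20* was called in both *Ago2* mutants, at 3.93, 3.91 and 3.81 CPM in *Ago2* fl/fl, 6.80, 6.80 and 6.11 in *Ago2* ADH, and 4.58 and 8.48 in *Ago2* null libraries. The log2 fold change was 0.81 ± 0.138 in *Ago2* ADH (edgeR adjusted p = 7.75e-05) and 0.78 ± 0.21 in *Ago2* null (edgeR adjusted p = 0.0057). The *Ago2* null libraries were far apart, and without replicate 2 that value was 0.27 (edgeR adjusted p = 0.346). The call was also lost without any of the *Ago2* fl/fl replicates (edgeR adjusted p = 0.0129 to 0.0214) and with the offsets (0.011). *Mrpl55* rose from 29.3 ± 1.49 CPM (SD, n = 3) in *Ago2* fl/fl to 41.2 ± 3.18 (n = 3) in *Ago2* ADH and 46.6 ± 0.0352 (n = 2) in *Ago2* null, with log2 fold changes of 0.54 and 0.70 (edgeR adjusted p = 6.97e-06 and 1.3e-06). In *Dicer* KO it differed from *Dicer* WT by 0.23 ± 0.112 (edgeR adjusted p = 0.109), which did not pass. *Mrpl1*, a protein of the mobile stalk beside the exit site, fell in *Ago2* ADH from 41.6 ± 2.3 to 33.2 ± 0.396 CPM (log2 fold change -0.28, edgeR adjusted p = 0.00246), and lost that call without *Ago2* fl/fl replicate 1 or 2 (edgeR adjusted p = 0.0104 and 0.0187). *Mrpl32* fell in both *Ago2* mutants, from 102 ± 1.8 to 83.8 ± 6.82 and 84.7 ± 5.25 CPM (log2 fold change -0.23 in each, edgeR adjusted p = 0.00263 and 0.0064), and missed the threshold without *Ago2* ADH replicate 1 or 3 (0.0112 and 0.0152) or, in *Ago2* null, without any library but *Ago2* null replicate 2 (0.0176 to 0.0718), with all 5 groups in a fit (0.011), with the offsets (0.0222) and with a replicate block. With the offsets it missed the threshold in *Ago2* ADH too (edgeR adjusted p = 0.114). *Mrpl12*, which has been described as a partner of the mitochondrial RNA polymerase, passed in none, with log2 fold changes of 0.28, 0.30 and 0.20.

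Of 21 large subunit proteins particular to mitochondria, 3 rose and 2 fell in *Ago2* ADH, 4 rose and 2 fell in *Ago2* null, and 3 rose and 2 fell in *Dicer* KO. *Mrpl45*, which lies near the exit tunnel, rose from 12.8 ± 0.704 to 16.0 ± 0.857 CPM in *Ago2* ADH (log2 fold change 0.36 ± 0.0974, edgeR adjusted p = 0.00437) and from 10.9 ± 0.399 to 15.4 ± 0.609 in *Dicer* KO (0.50 ± 0.122, edgeR adjusted p = 0.00237). The first was lost without *Ago2* fl/fl replicate 1 or 3 or *Ago2* ADH replicate 3 (edgeR adjusted p = 0.013 to 0.0251) and with all 5 groups in a fit (0.0119), and the second without *Dicer* WT replicate 2 (edgeR adjusted p = 0.0133). Its increase of 0.33 ± 0.11 in *Ago2* null did not pass (edgeR adjusted p = 0.0185). *Mrpl51* passed in *Dicer* KO alone, at 17.6, 18.9 and 18 CPM in *Dicer* WT and 27.4, 22.9 and 25 in *Dicer* KO libraries (log2 fold change 0.46 ± 0.104, edgeR adjusted p = 0.00131). In *Ago2* ADH its change was 0.11 ± 0.0743, and the difference between both effects was -0.40 ± 0.123 (edgeR adjusted p = 0.044), short of the threshold. *Mrpl48* was high and fell from 189 ± 8.55 to 154 ± 3.29 CPM in *Ago2* ADH (log2 fold change -0.25, edgeR adjusted p = 0.000271) and from 166 ± 9.5 to 138 ± 18.1 in *Dicer* KO (-0.28, edgeR adjusted p = 0.00877). The *Dicer* KO call was lost without *Dicer* KO replicate 2 or 3 or *Dicer* WT replicate 1 or 2 (edgeR adjusted p = 0.0173 to 0.0497) and with RLE scaling (0.0106), with a log2 fold change of -0.18 without *Dicer* KO replicate 3. *Mrpl49* was called in *Ago2* null alone, at 7.22 and 11.2 CPM against 5.10, 6.21 and 6.90 in *Ago2* fl/fl (log2 fold change 0.63 ± 0.179, edgeR adjusted p = 0.00782), and without *Ago2* null replicate 2 it was 0.28 (edgeR adjusted p = 0.263), missing the threshold also without *Ago2* fl/fl replicate 1 or 2 (0.0316 and 0.018) and with all 5 groups in a fit (0.0173). *Mrps18a*, a relative of bacterial S18, and *Mrps30* carry small subunit symbols, but their proteins sit in the mitochondrial large subunit and are counted there. *Mrps18a* fell in *Ago2* null (log2 fold change -0.43 ± 0.106, edgeR adjusted p = 0.00287), lost that call without *Ago2* null replicate 2 (-0.33, edgeR adjusted p = 0.0429) or *Ago2* fl/fl replicate 2 or 3 (0.0134 and 0.0119), and read -0.29 in each of the other mutants, neither called.

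In the small subunit, 16 proteins shared with bacteria were tested, of which 3 rose and 2 fell in *Ago2* ADH, 3 rose and 3 fell in *Ago2* null, and 1 fell in *Dicer* KO. *Mrps15* read 12.3, 10.5 and 12.1 CPM in *Ago2* fl/fl, 18.8, 17.3 and 22.5 in *Ago2* ADH, and 20.2 and 22.7 in *Ago2* null libraries. It rose in both, by 0.79 ± 0.111 and 0.91 ± 0.108 on the log2 scale (edgeR adjusted p = 9.05e-06 and 3.17e-06). In the *Dicer* series it read 10.8, 13.6 and 10.5 CPM in the wild type and 15.1, 16.4 and 15 in *Dicer* KO, which did not overlap but missed the threshold (0.41 ± 0.133, edgeR adjusted p = 0.0174). *Mrps18c*, a relative of bacterial S18, rose from 26.6 ± 0.343 CPM to 36.2 ± 3.2 in *Ago2* ADH and 36.5 ± 1.33 in *Ago2* null (log2 fold changes 0.49 and 0.48, edgeR adjusted p = 3.42e-05 and 8.5e-05) and differed by 0.17 ± 0.105 in *Dicer* KO (edgeR adjusted p = 0.188). *Mrps2* fell in both *Ago2* mutants (-0.39 ± 0.0964 and -0.45 ± 0.0982, edgeR adjusted p = 0.0025 and 0.00117), the first missing the threshold without *Ago2* fl/fl replicate 2 (0.0224) or *Ago2* ADH replicate 1 (0.0201) and the second without *Ago2* fl/fl replicate 2 (0.0111) or *Ago2* null replicate 2 (0.01). *Mrps5* fell in *Ago2* null alone (-0.53 ± 0.146, edgeR adjusted p = 0.00633), and that call was lost without any library but *Ago2* fl/fl replicate 1 (edgeR adjusted p = 0.0162 to 0.0376), with all 5 groups in a fit (0.0172), with the offsets (0.0171) and with a replicate block. *Mrps12*, of the decoding centre, was not called, at log2 fold changes of -0.03, 0.11 and -0.12.

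Of 10 small subunit proteins found only in mitochondria (9 in the *Dicer* series), 1 rose and 3 fell in *Ago2* ADH, 2 rose and 1 fell in *Ago2* null, and 2 fell in *Dicer* KO. *Mrps26* had the second largest called increase in *Ago2* ADH, at 3.05, 3.09 and 3.68 CPM in *Ago2* fl/fl, 7.13, 5.36 and 5.62 in *Ago2* ADH, and 6.45 and 5.77 in *Ago2* null libraries. Its log2 fold change was 0.93 in both (SE 0.164 and 0.173, edgeR adjusted p = 9.73e-05 and 0.000276). In the *Dicer* series it read 1.60, 2.12 and 2.00 CPM in the wild type and 2.11, 2.49 and 2.31 in *Dicer* KO, which overlapped, and the change of 0.27 ± 0.268 did not pass (edgeR adjusted p = 0.441). The *Ago2* ADH effect minus the *Dicer* KO effect was 0.61 ± 0.28 for this gene (edgeR adjusted p = 0.186), so a difference between the mutants was not shown. *Mrps35* fell from 31.2 ± 1.69 to 24.6 ± 2.03 CPM in *Ago2* ADH (-0.29, edgeR adjusted p = 0.00525) and from 19.0 ± 1.01 to 13.5 ± 0.822 in *Dicer* KO (-0.50, edgeR adjusted p = 0.00142). Without *Ago2* ADH replicate 3 or *Ago2* fl/fl replicate 1 or 3 the first value missed the threshold (edgeR adjusted p = 0.0143 to 0.0288). *Mrps33* and *Mrps22*, among the most abundant members, were not called in any mutant, with log2 fold changes between -0.12 and 0.04. *Mrps18b*, another relative of bacterial S18 and counted here, was not called, at 0.04, 0.12 and -0.08.

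**Figure D4:**
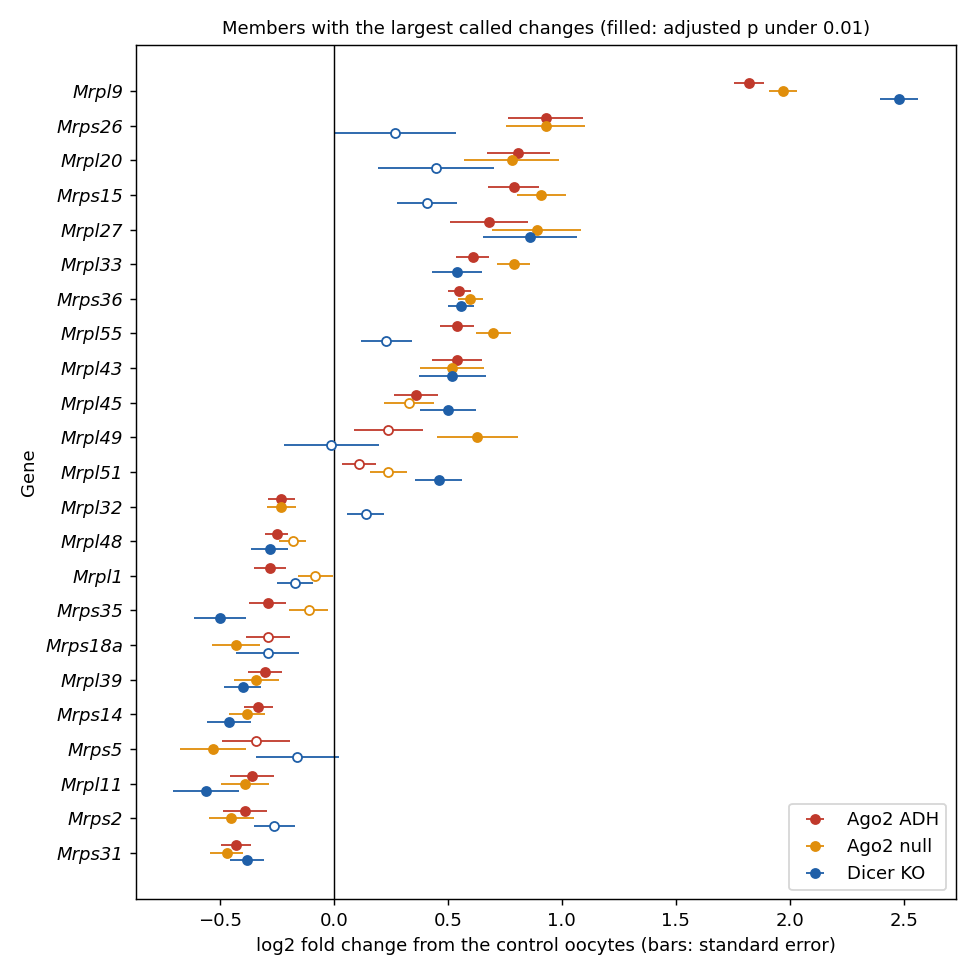
log2 fold change from the control oocytes for the 23 members with the largest called changes, in *Ago2* ADH (red), *Ago2* null (orange) and *Dicer* KO (blue); bars are standard errors and filled points had an adjusted p under 0.01. *Mrpl9*, at 1.82, 1.97 and 2.48, lies to the right of all others, and *Mrps26*, *Mrpl20*, *Mrps15* and *Mrpl55* have open blue points closer to 0.

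Together, 5 members were called higher and 4 lower in all 3 comparisons, and 45 were called in none of them. The shares of all genes called in all 3 or in none were not computed. Of the 15 members up in *Ago2* ADH, 40.0% were also up in *Dicer* KO, and 85.7% of the 7 up in *Dicer* KO were up in *Ago2* ADH. Over all genes tested these shares were 57.5% and 72.6%. For decreases they were 60.0% of the 10 in *Ago2* ADH and all 6 in *Dicer* KO, and 65.0% and 74.3% over all genes. Whether the members differ from the other genes in these shares was not tested. No member was called in opposite directions. In the 6 members with several transcripts, the other transcripts fell on the same side of the threshold as the one used. Across the 77 members tested in both, the log2 fold changes had r = 0.827 and rho = 0.752, and without *Mrpl9* r = 0.74 and rho = 0.743. Over all 13335 genes tested in both, the values were 0.794 and 0.745. These groups share no library, but genes are not independent replicates, and the values are a description.

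**Figure D5:**
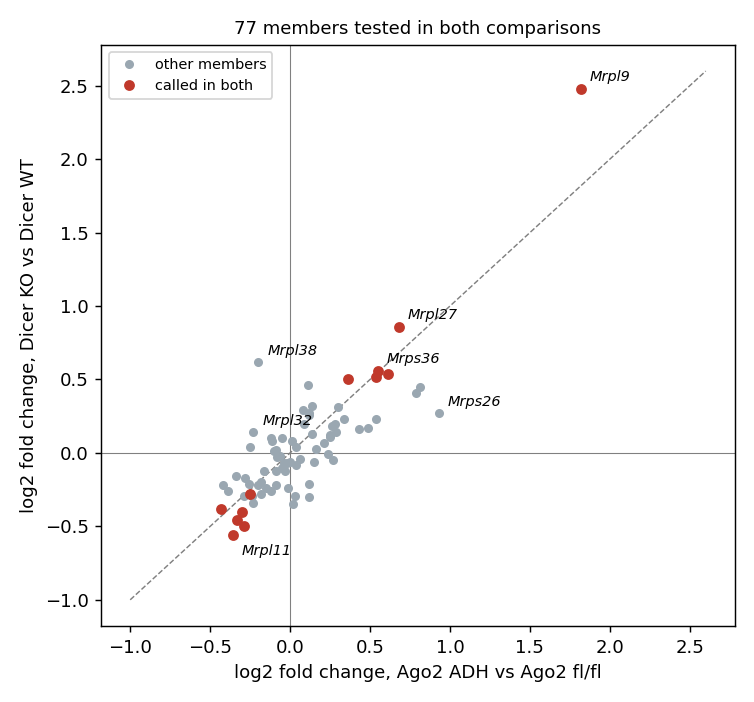
log2 fold change in *Dicer* KO against that in *Ago2* ADH for the 77 members tested in both; red points were called in both and the dashed line marks equal changes. *Mrpl9*, at 1.82 and 2.48, lies alone at the upper right, and *Mrpl38* and *Mrpl32* lie left of 0 and above it.

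For each member the *Dicer* KO effect was also subtracted from the *Ago2* ADH effect, and that difference was tested itself. It passed for 1 of 78 members, against 3.74% of all genes tested. An unadjusted p under 0.05 by edgeR was seen in 9 of the 78 members and in 3406 of all 14530 genes tested. The member was *Mrpl9*, with a smaller increase in *Ago2* ADH than in *Dicer* KO (difference of log2 fold changes -0.71 ± 0.107, edgeR adjusted p = 0.000138). *Mrpl32* and *Mrpl38*, both large subunit proteins and chosen here after their values were seen, came closest otherwise. *Mrpl32* had log2 fold changes of -0.23 in *Ago2* ADH and 0.14 in *Dicer* KO (difference -0.42 ± 0.104, edgeR adjusted p = 0.0117), and *Mrpl38* of -0.20 and 0.62 (difference -0.87 ± 0.242, edgeR adjusted p = 0.0259). *Mrpl38* was a low gene, at 3.34 to 3.71 CPM in *Dicer* WT and 4.49 to 6.72 in *Dicer* KO libraries.

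Between *Ago2* ADH and *Ago2* null oocytes no member was called by edgeR, where 0.118% of all genes were. DESeq2 called none either, and 9 members had an unadjusted p under 0.05 by edgeR, with 1447 such genes among all 14364 tested. The 95% interval of the difference lay within 1.5-fold for 76 of the 78 members, the others being *Mrpl49* and *Mrps34*. The smallest p values belonged to *Mrpl33* and *Mrps16*, with log2 differences of -0.20 (edgeR adjusted p = 0.392) and -0.34 (edgeR adjusted p = 0.31), both lower in *Ago2* ADH. The median log2 difference over the members was -0.072, and -0.007 over all genes, with 53 of 78 members lower in *Ago2* ADH. The summed level of all members was 3312 to 3430 CPM in *Ago2* fl/fl, 3399 to 3672 in *Ago2* ADH and 3672 to 3731 in *Ago2* null libraries, and 2425 to 2491 in *Dicer* WT and 2491 to 2657 in *Dicer* KO libraries. With all members, *Ago2* ADH overlapped its control, and the lowest *Dicer* KO sum equalled the highest *Dicer* WT sum. Without *Mrpl9* the sums were 3257 to 3371, 3230 to 3462, 3452 to 3521, 2409 to 2471 and 2394 to 2556. There too *Ago2* ADH and *Dicer* KO overlapped their controls. No test was made on the sums.

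Among features of the transcripts that the symbols do not use, repeats, antisense neighbours and pseudogenes were counted. Of 9 members holding at least 100 bases at 90% identity or more to at least 100 other genes (*Mrpl9*, *Mrpl19*, *Mrpl27*, *Mrpl35*, *Mrpl40*, *Mrpl43*, *Mrpl51*, *Mrps14* and *Mrps26*), 5 rose and 1 fell in *Ago2* ADH, 5 rose and 1 fell in *Ago2* null, and 4 rose and 1 fell in *Dicer* KO. Of the other 69, 10 rose and 9 fell, 11 rose and 7 fell, and 3 rose and 5 fell. The 24 members whose exons overlap a gene on the other strand had 5 increases and 1 decrease in *Ago2* ADH, 8 and 0 in *Ago2* null, and 3 and 0 in *Dicer* KO. Without such an overlap 54 members had 10 increases and 9 decreases, 8 and 8, and 4 and 6. A total of 7 members (*Mrpl22*, *Mrpl23*, *Mrpl27*, *Mrpl42*, *Mrps10*, *Mrps18c* and *Mrps21*) have a processed pseudogene matching at least 50% of their length, and the split of their reads is uncertain. These features overlap with each other, were looked at after the calls were known, and their part in the calls was not tested. They were not counted over all genes, so the only background is the share of all genes called, 40.9%, 37.3% and 34.5% in the 3 comparisons. *Mrpl46* and *Mrps11* lie head to head on chromosome 7, with 41 bases between them by their RefSeq bounds and 173 shared exon bases when all GENCODE transcripts are taken, and neither was called in any comparison.

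In each mutant, some partners of the mitochondrial ribosome had larger called changes than any member but *Mrpl9*. In both *Ago2* mutants *Mrm2*, at very low counts, exceeded *Mrpl9* too. The partners named below were picked from their lists. The share of partners called at 2-fold or more was not computed, and over all genes it was 13.4% in *Ago2* ADH, 12.9% in *Ago2* null and 12.9% in *Dicer* KO. Of 5 mitochondrial ribosomal proteins under other symbols, 3 rose in *Ago2* ADH, 2 rose in *Ago2* null and 1 fell in *Dicer* KO, with *Chchd1* rising by 0.55 ± 0.116 and 0.67 ± 0.114 in the *Ago2* mutants (edgeR adjusted p = 0.00057 and 0.000136) and *Ptcd3* falling by 0.49 ± 0.0914 in *Dicer* KO on the log2 scale (edgeR adjusted p = 0.000252). Of 14 mitochondrial translation factors, 2 rose and none fell in each mutant, a lower share than the 40.9%, 37.3% and 34.5% of all genes called there. *Mtif2*, the initiation factor that brings the initiator tRNA to the small subunit, went from 6.67 CPM in *Ago2* fl/fl to 22.9 in both *Ago2* mutants and from 9.06 in *Dicer* WT to 38.4 in *Dicer* KO (log2 fold changes 1.83 ± 0.105, 1.81 ± 0.111 and 2.08 ± 0.104, edgeR adjusted p = 3.53e-11, 9.69e-10 and 6.02e-12). *Mtif3*, the other initiation factor, rose by 0.28, 0.31 and 0.37 (edgeR adjusted p = 0.000747, 0.00149 and 0.00053).

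The same shares of all genes are the background of the next lists. Of 18 ribosome assembly genes in the files, 3 rose and 5 fell in *Ago2* ADH (17 tested), 4 rose and 4 fell in *Ago2* null (18 tested), and 1 rose and 3 fell in *Dicer* KO (16 tested). *Mrm2* had the largest called increases of this list, at log2 fold changes of 2.88 ± 0.629 in *Ago2* ADH and 2.66 ± 0.745 in *Ago2* null (edgeR adjusted p = 0.000804 and 0.00706). *Mrm3* was called in *Ago2* null at 2.33 ± 0.678 (edgeR adjusted p = 0.00907). Their *Ago2* fl/fl means were 0.0649 and 0.0882 CPM, close to the level that 3 counts come to. *Gtpbp10*, a GTPase of large subunit maturation, had log2 fold changes of -0.76 ± 0.0766, -0.79 ± 0.0851 and -0.76 ± 0.114 (edgeR adjusted p = 1.12e-07, 9.1e-07 and 2.09e-05). *Tfb1m*, which methylates the small subunit RNA, had -0.40, -0.46 and -0.61 (edgeR adjusted p = 6.21e-05, 0.000169 and 1.68e-05), while *Mterf4* rose by 0.41, 0.52 and 0.41 (edgeR adjusted p = 4.19e-05, 1.63e-05 and 0.000131). Of 17 genes tested in the list for charging mitochondrial tRNAs, which holds the aminoacyl-tRNA synthetases and *Qrsl1*, a subunit of the amidotransferase that completes the glutamine tRNA, 4 rose and 1 fell in *Ago2* ADH, 3 rose and 1 fell in *Ago2* null, and 3 rose and 1 fell in *Dicer* KO. *Vars2*, which charges the valine tRNA, had log2 fold changes of 1.49 ± 0.117, 1.54 ± 0.13 and 2.06 ± 0.139 (edgeR adjusted p = 4.25e-09, 5.31e-08 and 5.84e-10). *Qrsl1* was among those that rose in the *Ago2* mutants, at 1.12 ± 0.227 and 1.36 ± 0.246 (edgeR adjusted p = 0.000412 and 0.000221). In the list for mitochondrial transcription, 2 rose and 1 fell of 5 tested in *Ago2* ADH, 2 rose and 1 fell of 6 in *Ago2* null, and 0 of 6 were called in *Dicer* KO. *Tfam*, which packages mitochondrial DNA, rose by 0.82 ± 0.112 and 0.86 ± 0.112 in the *Ago2* mutants (edgeR adjusted p = 5.61e-06 and 8.5e-06) and differed by 0.24 ± 0.114 in *Dicer* KO (edgeR adjusted p = 0.101).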

How the data were processed

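The deposited files held raw read counts per RefSeq transcript for each library, which the authors had made from NuGen Ovation cDNA libraries with TopHat2 2.0.7 and HTSeq 0.6.1 on mm10, without strand; reads with several alignments stood in a tally of their own, and the closing tallies, 40.5% of all entries in the first *Ago2* fl/fl library, were left out of library sizes. Of 26495 transcripts, 26077 took their symbol from the RefSeq table, 117 from GENCODE and 301 had none.

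The counts were tested with edgeR 4.0.16 (R 4.3.3; filterByExpr with a minimum count of 10, TMM, quasi-likelihood F test) on all transcripts of the groups compared, with Benjamini-Hochberg adjustment over all transcripts and a threshold of 1%; background shares are over 1 transcript per gene. Levels are CPM with TMM factors over all 14 libraries, and lengths are those of the longest GENCODE transcript of each ID. Scripts were tested on simulated data. Alternatives were DESeq2 1.42.0, RLE scaling, no filter, a 5% threshold, 1 transcript per gene, all 5 groups in a fit, a replicate block, offsets for GC content and length, and each library left out. Members named were the 8 largest called changes in each direction among members averaging 100 normalized counts or more, the members called or with the smallest p between mutants, the 6 highest and 6 lowest, *Mrps18a* to *Mrps18c*, *Mrps36*, *Mrpl12* and *Mrps12*. Members and lists were chosen with earlier results of these data known. Each library pooled oocytes of several mice, and p-values measure the spread between such pools. Replicate libraries differed by more than counting noise (chi-square per degree of freedom 6.35 to 14.3).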

Additional observations from a re-analysis of the deposited data

Results flagged for a closer look

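The increase of *Mrpl9* differed between the mutants, by a test of the difference itself: the *Ago2* ADH effect minus the *Dicer* KO effect was -0.71 ± 0.107 on the log2 scale (edgeR adjusted p = 0.000138), from 55.9 to 191 CPM in the *Ago2* series and from 18.2 to 101 CPM in the *Dicer* series. The libraries of both series were sequenced in separate lanes.

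The tally of alignments that were not unique, which no comparison used, was higher in the mutants. Up to 100 alignments were allowed per read, so a higher tally need not mean more such reads. Per count on transcripts the tally was 0.572 ± 0.0218 (SD, n = 3) in *Ago2* fl/fl, 1.61 ± 0.0441 (n = 3) in *Ago2* ADH and 1.61 ± 0.0636 (n = 2) in *Ago2* null libraries. In the *Dicer* series it was 0.458 ± 0.0743 (n = 3) in *Dicer* WT and 1.03 ± 0.139 (n = 3) in *Dicer* KO libraries. This tally moved with genotype, and its part in the calls of the members was not tested.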

How the results depend on the processing

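No call of a named member changed its direction under any alternative, and no member was called between *Ago2* ADH and *Ago2* null under any of the 14 run there. With all 5 groups in a fit the median log2 fold change of the members was -0.032 in *Ago2* ADH, where its sign turned, and 0.034 in *Ago2* null. With offsets for GC content and length, added after seeing the data, 5 members were lower in *Ago2* ADH, 5 in *Ago2* null and 2 in *Dicer* KO, and the medians were 0.018 in *Ago2* null, 0.023 in *Dicer* KO (its sign turned) and -0.043 for the *Ago2* ADH effect minus the *Dicer* KO effect. A 5% threshold gave 39 calls in *Ago2* null (26 higher, 13 lower), 22 in *Dicer* KO (11 higher, 11 lower) and 4 for the difference of effects, all 4 lower. That difference gave 2 calls, both lower, with DESeq2 and with no filter on low counts.

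Replicate numbers did not pair the samples: deviations of libraries with the same number correlated at -0.0852 to 0.0426, and 3 of 6 libraries of *Ago2* ADH and *Ago2* fl/fl and 1 of 6 *Dicer* libraries correlated best with their own number. With the replicate block the calls were 28 in *Ago2* ADH, 18 in *Ago2* null (5 lower), 12 in *Dicer* KO and 2 (both lower) for the difference of effects. The block ended the calls of *Mrpl32*, *Mrpl39*, *Mrps30* and *Mrps5* in *Ago2* null (edgeR adjusted p = 0.0406, 0.0367, 0.0166 and 0.0289) and of *Mrpl43* in *Dicer* KO (0.014). With the block and the offsets together the counts were 20 (6 lower), 19 (5 lower, median 0.016), 8 (1 lower, median 0.024) and 1.

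Leaving out each library in turn gave 16 to 27 calls in *Ago2* ADH (11 to 14 higher, 5 to 13 lower, median -0.014 to 0.052), 11 to 21 in *Ago2* null (9 to 16 higher, 2 to 6 lower, median 0.048 to 0.083), 9 to 14 in *Dicer* KO (5 to 7 higher, 4 to 7 lower, median -0.013 to 0.005), and 1 to 2 for the difference of effects, all lower, with 2 without *Ago2* ADH replicate 2 or *Dicer* KO replicate 3 (median -0.041 to 0.017). The median between *Ago2* ADH and *Ago2* null was then -0.087 to -0.049. A lone *Ago2* null library was assumed to vary like the other group.

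Calls held under every alternative for 10 of 20 named members in *Ago2* ADH, 8 of 21 in *Ago2* null and 4 of 13 in *Dicer* KO (*Mrpl9*, *Mrpl33*, *Mrpl51* and *Mrps36*). The causes of these losses were not tested. Limits are few libraries, pooled oocytes, counts without strand or multiply aligned reads, and the low depth behind *Mrps34*, *Mrps26* and *Mrpl27*.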
